A study of Mus musculus with 48 samples.

Results

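The antioxidant enzymes described here are the superoxide dismutases SOD1, SOD2 and SOD3, catalase (CAT), the glutathione peroxidases GPX1, GPX3 and GPX4, and the mitochondrial peroxiredoxin PRDX3. They were chosen by name, as every probe that the array annotates to 1 of these 8 genes, which gave 8 probes of 24613, 1 for each gene. Expression was measured on Illumina MouseRef-8 arrays in 3T3-L1 cells, a mouse fibroblast line that turns into fat cells under hormonal induction. All cells were transfected with siRNA at 50 nM, either a pool against PPARγ, the nuclear receptor that drives fat cell formation, or a non-targeting control pool. Confluent cells of both groups were then kept for 48 hours with IBMX (0.5 mM) and dexamethasone (0.25 µM), followed by 5 µg/ml insulin and 1 µM rosiglitazone, a PPARγ ligand, for 48 hours. Days were counted from rosiglitazone, and cells were harvested on day -2 and daily from day 0 to day 6, with 3 biological replicates for each siRNA and day, 48 arrays in all. Cultures harvested on days -2 and 0 were thus taken before insulin and rosiglitazone were added. All comparisons are between cultures of 1 line, and the control group is transfected and not untreated.

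Superoxide, which leaks mainly from the respiratory chain, is converted to hydrogen peroxide by the superoxide dismutases. SOD1 does so with copper and zinc in the cytosol, SOD2 with manganese in the mitochondrial matrix, and SOD3 outside the cell. Hydrogen peroxide is then removed by catalase in peroxisomes, by glutathione peroxidases, which carry selenium and use glutathione, and by peroxiredoxins, which use thioredoxin. GPX1 works in the cytosol and mitochondria, GPX3 is the secreted plasma form, GPX4 reduces lipid peroxides within membranes, and PRDX3 is the peroxiredoxin of the mitochondrial matrix. Mitochondria and peroxisomes both multiply as fat cells form.

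A probe was taken as above background on an array when its detection p was under 0.01. By this rule 6 of the 8 enzymes, namely SOD1, SOD2, SOD3, GPX1, GPX4 and PRDX3, were above background on all 48 arrays. For CAT the number was 11 of the 24 arrays under control siRNA and 2 of the 24 under PPARγ siRNA. GPX3 was above background on 0 of 48 arrays, so its readings are those of background and no level, difference or fold is given for it. Of all probes, 7121 were above background on every array. The share of probes above background lay between 33.4% and 35.4% on the replicate 3 arrays and between 36.8% and 40.4% on those of replicates 1 and 2, so replicate 3 stood apart in both siRNA groups. Levels are log2 normalized intensities, differences are PPARγ siRNA minus control siRNA on that scale, and levels of different probes are not compared. A probe was called when limma's Bonferroni adjusted p over all 24613 probes was at most 0.05, with the replicate number as a block. Days of a replicate count as independent in this fit. Its SEs and p-values thus leave out part of how the siRNA difference varied between replicates.

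Pparg itself, read by the brightest of its 3 probes, lay between 10.001 and 12.22 with a median of 11.54 on the 24 control arrays. On the 24 PPARγ siRNA arrays it lay between 7.58 and 9.81 with a median of 9.35. The groups did not overlap, and the level was lower in 24 of 24 same-numbered pairs, by a mean of -2.34 (SE 0.040). The other probes of Pparg differed by -2.51 and -1.21. Adipocyte markers moved with the siRNA as well. The mean log2 level over the 7 markers on the list lay between 6.34 and 6.61 on control day -2 and between 10.82 and 11.47 on control day 6, against 8.80 to 9.07 on day 6 under PPARγ siRNA. These means include background readings. All of the markers but Lpl were above background on 0 control day -2 arrays. Fabp4, Cd36, Plin and Cebpa were so on 0 PPARγ siRNA day 6 arrays. Adipoq, Lpl and Cfd were above background on all 3 of these arrays, with means of 12.45, 13.97 and 12.98. In control day 6 cells these means were 15.20, 15.14 and 15.53. The same mean over 6 fibroblast markers lay between 13.82 and 14.12 in control day 6 cells and between 14.08 and 14.32 in PPARγ siRNA day 6 cells. All 10 markers of macrophages, endothelium and muscle, Ptprc, Pecam1 and Myod1 among them, were at background on every array. The cultures thus differed in fat cell markers, whose part in the results below was not tested, and in bulk RNA fewer differentiated cells and less RNA of a gene per cell cannot be told apart.

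Since 4 of the enzymes were called lower under PPARγ siRNA, their proximal promoters are shown first, as the bases directly before the annotated start. PPARγ and its partner RXR bind direct repeats of the hexamer AGGTCA spaced by 1 base. Capitals mark each AGGTCA or GGGCGG, the GC box bound by Sp1, on either strand, in RefSeq sequence of build GRCm38.p6, read 5′ to 3′ on the strand of the gene.
PRDX3 (chr19:60874539-60874788, minus strand): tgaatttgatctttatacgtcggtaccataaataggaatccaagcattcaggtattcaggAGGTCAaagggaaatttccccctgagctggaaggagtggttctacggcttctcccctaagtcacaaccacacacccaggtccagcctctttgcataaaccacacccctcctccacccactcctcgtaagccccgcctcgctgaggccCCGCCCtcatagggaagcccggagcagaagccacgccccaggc
CAT (chr2:103485154-103485403, minus strand): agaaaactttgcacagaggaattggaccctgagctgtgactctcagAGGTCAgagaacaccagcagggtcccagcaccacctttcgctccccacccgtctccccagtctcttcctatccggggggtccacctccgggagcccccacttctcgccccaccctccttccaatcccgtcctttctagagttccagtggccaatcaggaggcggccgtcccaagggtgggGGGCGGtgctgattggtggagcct
SOD2 (chr17:13007589-13007838, plus strand): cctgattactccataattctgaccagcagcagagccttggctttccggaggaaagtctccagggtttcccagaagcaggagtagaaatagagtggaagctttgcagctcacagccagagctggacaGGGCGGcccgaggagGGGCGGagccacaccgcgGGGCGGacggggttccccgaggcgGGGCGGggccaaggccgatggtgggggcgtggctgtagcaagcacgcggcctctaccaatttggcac
SOD1 (chr16:90220512-90220761, plus strand): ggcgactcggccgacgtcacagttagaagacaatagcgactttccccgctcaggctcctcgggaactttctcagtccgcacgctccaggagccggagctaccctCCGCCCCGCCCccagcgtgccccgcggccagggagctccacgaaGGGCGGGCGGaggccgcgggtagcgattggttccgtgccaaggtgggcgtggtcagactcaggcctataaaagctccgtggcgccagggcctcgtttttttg

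The hexamer was found once in the PRDX3 window, 190 to 185 bases before the start, and once in the CAT window, 204 to 199 bases before it. The SOD2 and SOD1 windows did not hold these letters, and of the members not shown, 1 of the 4 GPX4 windows did, 68 to 63 bases before its start. Of 32851 promoters of the same length, 14.0% held the hexamer on either strand. The full direct repeat of the hexamer spaced by 1 base, searched with exact letters, was in 0.033% of all promoters and in none of the members' windows. The study scanned its binding regions for the repeat with mismatches allowed. This was not done here, so looser forms of the repeat were not counted. The GC box was in the windows of all 4 genes, with 4 matches each in SOD1 and SOD2, those of SOD1 overlapping in pairs, and in 32.7% of all promoters. The core of the antioxidant response element, TGACNNNGC, which NRF2 binds, was in the SOD1 window, 56 to 48 bases before the start, and in 10.2% of all promoters. Its first 4 letters are also the first 4 of the hexamer's reverse complement. A TATA box, searched as TATAAA, lay 37 to 32 bases before the SOD1 start. RefSeq entries were found for 7 of the 8 members, all but SOD3. These matches describe letters in a window and were not tested as binding sites.

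Over days -2 to 6, PRDX3, SOD2, SOD1 and CAT were lower under PPARγ siRNA and no enzyme was called higher. That is 4 of 8 probes, where 6.74% of all probes were called lower and 13.1% in either direction. Earlier results of these data were known when the enzymes were chosen, so setting these shares side by side is only a description. Among the 6 enzymes above background on every array, 3 were called lower, beside 16.1% of all such probes called lower and 15.3% called higher. The median difference over the 8 probes was -0.23, and -0.03 over all probes. GPX1, GPX4, SOD3 and GPX3 did not pass the test.

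**Figure D1:**
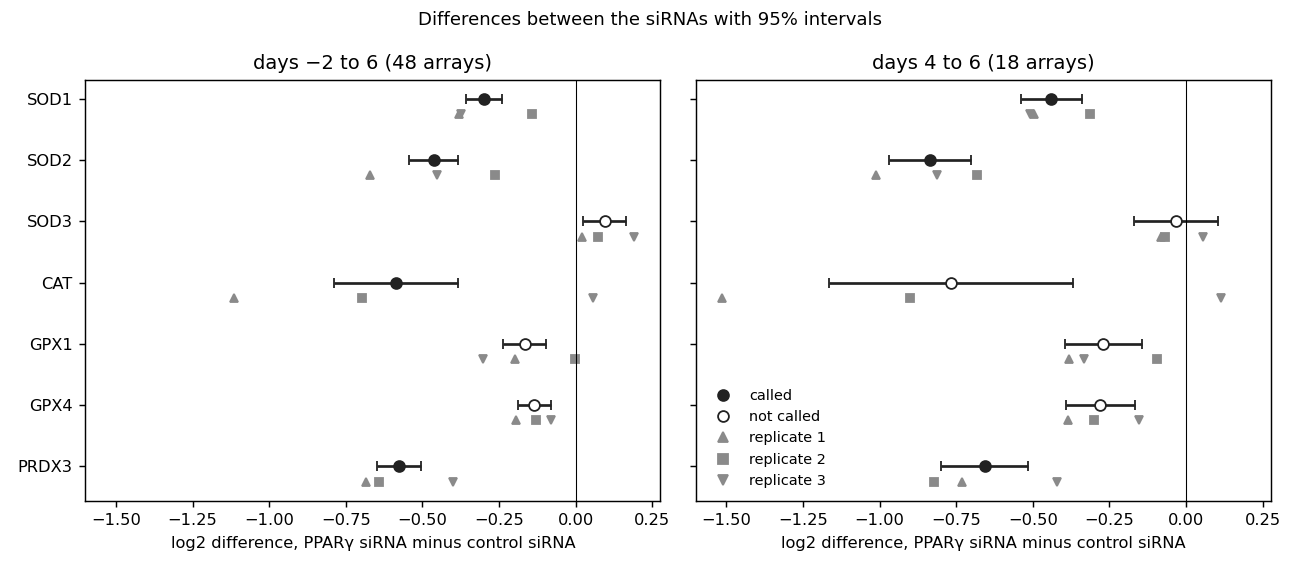
Log2 difference between PPARγ siRNA and control siRNA (x axis) for each enzyme but GPX3 (rows), over days -2 to 6 on the left and days 4 to 6 on the right. Circles with bars are limma means with 95% intervals, filled where called, and grey symbols are the means of replicates 1, 2 and 3; PRDX3, SOD2 and SOD1 are filled in both panels, and CAT spans from -1.11 to 0.06 between replicates on the left.

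PRDX3 removes hydrogen peroxide in the mitochondrial matrix. Its level lay between 10.70 and 12.47 with a median of 11.66 on control arrays, and between 10.63 and 11.60 with a median of 11.08 on PPARγ siRNA arrays. It was lower by a mean of -0.58 (SE 0.035, adjusted p = 3.87e-14), a 1.49-fold difference, in 22 of 24 pairs. The means of the 3 replicates were -0.69, -0.64 and -0.40 (SD 0.15), so each replicate showed the direction.

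SOD2, the matrix enzyme that makes the peroxide PRDX3 consumes, lay between 11.16 and 12.80 with a median of 12.27 under control siRNA. Under PPARγ siRNA it lay between 11.18 and 12.33 with a median of 11.70. The mean difference was -0.46 (SE 0.040, adjusted p = 1.26e-09), 1.38-fold, with replicate means of -0.67, -0.26 and -0.45 (SD 0.20). It was lower in 17 of 24 pairs, and 6 of the 7 exceptions were the pairs of days -2 and 0.

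SOD1, the cytosolic enzyme, lay between 13.10 and 13.85 with a median of 13.67 in control cells, and between 13.10 and 13.54 with a median of 13.32 in PPARγ siRNA cells. The mean difference of -0.30 (SE 0.029, adjusted p = 3.04e-08), 1.23-fold, was the smallest of the 4 that were called. It was lower in 21 of 24 pairs, and the replicate means were -0.38, -0.14 and -0.38 (SD 0.14).

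CAT, the peroxisomal enzyme, was near background. On control arrays it lay between 5.36 and 7.35 with a median of 6.36, and on PPARγ siRNA arrays between 5.37 and 6.44 with a median of 5.65. The mean difference was -0.59 (SE 0.10, adjusted p = 0.0245), lower in 18 of 24 pairs. No fold is given, since against the lowest signal above background no lower bound exceeded 1. The replicates did not share the difference. The means were -1.11 and -0.70 in replicates 1 and 2 and 0.06 in replicate 3, where CAT was above background on 0 of 16 arrays. The adjusted p was 1 without replicate 1, 1 without replicate 2 and 0.103 with quantile normalization, so this call rests on single replicates and on the normalization. It was also lost, with an adjusted p of 1, with no replicate block and with each day's pairs as blocks.

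The glutathione peroxidases and SOD3 differed less. GPX4, which protects membrane lipids, differed by -0.13 (SE 0.027, adjusted p = 0.304), with 18 of 24 pairs lower. When only probes above background on at least 3 arrays were tested, GPX4 was called (adjusted p = 0.0275). GPX1, the main cytosolic form, differed by -0.17 (SE 0.035, adjusted p = 0.629), also in 18 of 24 pairs, and its replicate 2 mean was -0.0023. SOD3, the extracellular form, differed by 0.10 (95% interval 0.02 to 0.17, adjusted p = 1) and was lower in 8 of 24 pairs. These intervals do not show that the 3 genes were equal between the siRNAs. The plot of differences shows GPX1, GPX4 and SOD3 with intervals away from 0 over days -2 to 6, yet none passed the correction over all probes.

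In control cells, 5 of the enzymes rose between day -2 and day 6, where 4.11% of all probes were called higher. SOD2 rose most, by 1.06 (SE 0.11, adjusted p = 5.07e-07), from 11.79, 11.38 and 11.16 in replicates 1 to 3 on day -2 to 12.63, 12.52 and 12.34 on day 6. PRDX3 rose by 0.64 (adjusted p = 0.00374), GPX4 by 0.58 (6.89e-05), SOD1 by 0.57 (0.000469) and SOD3 by 0.57 (0.0239). In each of these 5 genes the 3 control replicates of day 6 lay above the 3 of day -2. The share of all probes that did so was not counted. As the 5 were called by the same contrast, this only describes their values. GPX1 changed by 0.44 and CAT by 0.76, both with an adjusted p of 1. An F-test over all days called the same 5 enzymes, beside 23.5% of all probes. That count was 2 without replicate 1, 3 without replicate 2, 2 without replicate 3 and 3 with no replicate block.

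**Figure D2:**
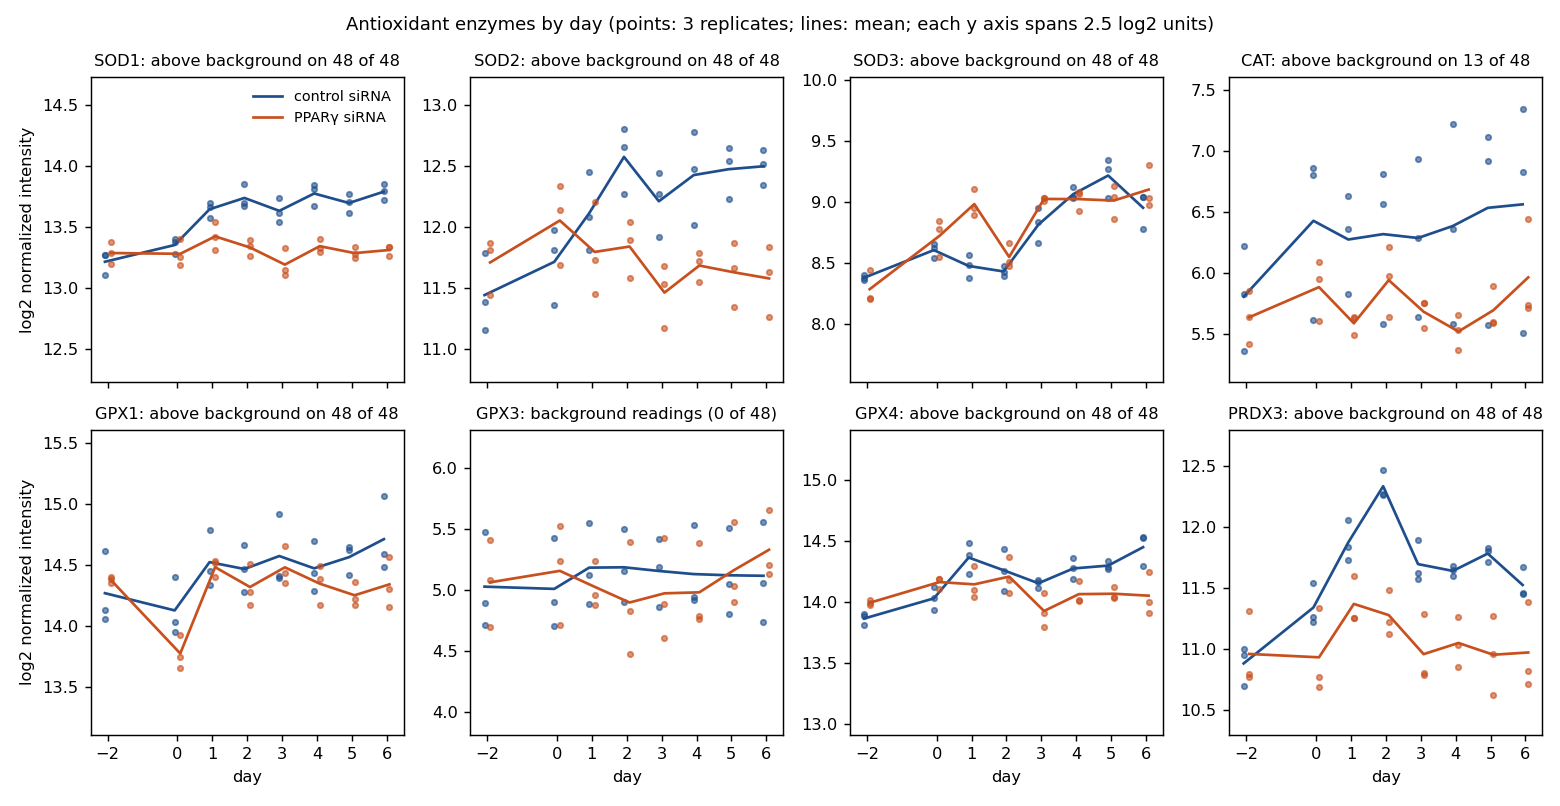
Log2 normalized intensity (y axes, each spanning 2.5 units) of the 8 enzymes by day (x axis), with points for the 3 replicates and lines for their mean, control siRNA in blue and PPARγ siRNA in orange. Control PRDX3 is highest on day 2 (mean 12.34), control SOD2 goes from a mean of 11.44 to 12.50, the lines of SOD3 cross, and the GPX3 panel holds background readings.

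The time courses differed in shape. PRDX3 in control cells was highest on day 2, with a mean of 12.34 ± 0.12 (SD, n = 3), up from 10.88 ± 0.16 on day -2, and came back to 11.53 ± 0.13 on day 6. SOD2 reached 12.58 ± 0.28 on day 2 and stayed between 12.21 and 12.50 from day 3 on. SOD1 went from 13.21 ± 0.10 to 13.74 ± 0.10 on day 2 and 13.79 ± 0.07 on day 6, a plateau. SOD3 stood at 8.43 ± 0.04 on day 2 and was highest on day 5, at 9.22 ± 0.16. GPX1 dipped on day 0 under both siRNAs, to 14.13 ± 0.24 in control and 13.78 ± 0.14 in PPARγ siRNA cells, a dip whose own contrast was not tested.

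Under PPARγ siRNA the rise was called for SOD3 alone of the 8 enzymes, by 0.82 (SE 0.098, adjusted p = 1.22e-05), where 2.49% of all probes were called higher. SOD3 thus rose under both siRNAs, and the difference between the changes was 0.24 (95% interval -0.04 to 0.52, adjusted p = 1). The other enzymes changed by -0.13 (SOD2), -0.04 (GPX1), 0.01 (PRDX3), 0.02 (SOD1), 0.06 (GPX4) and 0.33 (CAT) between the same days, each with an adjusted p of 1.

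The difference of these changes between the siRNAs was called for SOD2, at -1.19 (SE 0.16, adjusted p = 0.000147), beside 2.99% of all probes in either direction. PRDX3 had -0.63 (adjusted p = 1), SOD1 -0.55 (0.602), GPX4 -0.53 (0.418) and GPX1 -0.48 (1), none past the threshold. So a rise called in control cells and not in PPARγ siRNA cells was shown to differ between them for SOD2 and for no other enzyme. The SOD2 call was lost without replicate 3 (-1.10, adjusted p = 1), with no replicate block (adjusted p = 1) and with each day's pairs as blocks (adjusted p = 0.0754).

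Day by day, no enzyme was called on day -2, when 0.861% of all probes were called, on day 0 (3.03%) or on day 1 (2.91%). PRDX3 and SOD2 were called lower on each of days 2 (8.92% of all probes), 3 (2.76%), 4 (2.4%) and 5 (3.24%). On day 6 (3.88%) the called enzymes were SOD2 and SOD1, while PRDX3 had -0.55 with an adjusted p of 0.0617.

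**Figure D3:**
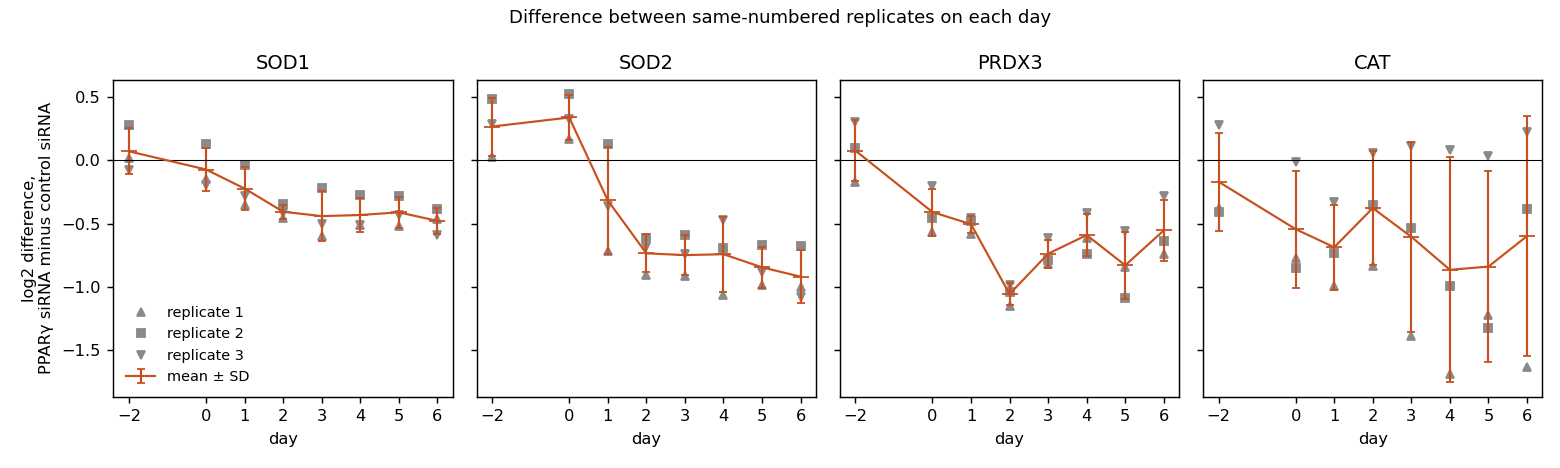
Log2 difference between same-numbered replicates of PPARγ siRNA and control siRNA (y axis) on each day (x axis) for the 4 enzymes called over days -2 to 6, with symbols for replicates and orange lines for the mean with SD. SOD2 is above 0 in all 3 replicates on days -2 and 0 and below it in all 3 from day 2, and CAT in replicate 3 stays between -0.33 and 0.28.

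The largest difference on a single day was that of PRDX3 on day 2. Its control replicates read 12.27, 12.26 and 12.47 and its PPARγ siRNA replicates 11.13, 11.22 and 11.49, which did not overlap. The difference was -1.06 (SE 0.10, adjusted p = 2.16e-08), or 2.08-fold. It then lay between -0.83 and -0.55 on days 3 to 6. The siRNA groups of PRDX3 did not overlap on 6 of 8 days, from day 1 to day 6. How many of all probes had groups that did not overlap was not counted. This count and those of the other enzymes below thus only describe the values.

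SOD2 changed sides. On day -2 it was higher under PPARγ siRNA by 0.27, with replicate differences of 0.03, 0.49 and 0.29, and on day 0 by 0.34, with 0.17, 0.52 and 0.33. Neither passed the test (adjusted p = 1), and the groups overlapped on both days. On day 6 the control replicates read 12.63, 12.52 and 12.34 against 11.64, 11.84 and 11.26, with no overlap and a difference of -0.92 (SE 0.11, adjusted p = 1.71e-05), 1.89-fold. The groups of SOD2 did not overlap on the 5 days from day 2 to day 6.

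SOD1 moved in the same direction at a smaller size. On day 6 its control replicates read 13.79, 13.72 and 13.85 and its PPARγ siRNA replicates 13.33, 13.33 and 13.26, a difference of -0.48 (SE 0.081, adjusted p = 0.0192). Its groups did not overlap on any of days 1 to 6. GPX4 was higher in all 3 pairs on day -2 (0.13) and day 0 (0.13) and lower in all 3 from day 1 on, with -0.40 on day 6 (adjusted p = 0.149). Its groups did not overlap on 4 days in the lower direction and on 1 day, day -2, in the higher direction.

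SOD3 was the one enzyme whose groups did not overlap with PPARγ siRNA on the higher side after day 0. On day 1 its control replicates read 8.48, 8.57 and 8.38 against 8.95, 8.89 and 9.11, a difference of 0.51 (SE 0.098, adjusted p = 0.198). The difference was -0.21 on day 5, so the sign was not kept. GPX1 had its groups apart on days 0 (-0.35) and 5 (-0.31), and CAT on day 1 (-0.69), none of them called.

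The last 3 days were also fitted on their own 18 arrays, since the study analysed these days separately too. SOD2 was lower by -0.84 (SE 0.063, adjusted p = 5.40e-06), PRDX3 by -0.66 (SE 0.068, adjusted p = 0.000604) and SOD1 by -0.44 (SE 0.047, adjusted p = 0.00101), each in 9 of 9 pairs. These are 3 of 8 probes, where 3.77% of all probes and 8.3% of those above background on every array were called lower. GPX4 differed by -0.28 in 9 of 9 pairs with an adjusted p of 1, and of 0.00414 when the same days were compared within the fit on all 48 arrays. GPX1 differed by -0.27, CAT by -0.77 and SOD3 by -0.03, each with an adjusted p of 1. The SOD1 and PRDX3 calls each depended on the replicates and the block. Without replicate 1 the adjusted p was 1 for SOD1 and 0.149 for PRDX3, without replicate 2 it was 0.903 for PRDX3, and without replicate 3 it was 0.725 for SOD1. With each day's pairs as blocks it was 0.0673 for SOD1, and with no replicate block it was 0.428 for PRDX3 and 0.0838 for SOD2.

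Whether the effect grew was tested as the mean difference over days 4 to 6 minus that over days 0 to 2. SOD2 gave -0.60 (SE 0.091, adjusted p = 0.00274), with -0.53, -0.69 and -0.57 in the 3 replicates, beside 3.63% of all probes called. PRDX3 gave -0.0013 (95% interval -0.17 to 0.16), since its difference was -0.66 in both periods. SOD1 gave -0.21 and GPX4 -0.23, both with an adjusted p of 1. The SOD2 call did not survive leaving out any 1 replicate, with adjusted p between 0.0585 and 1, and was also lost with blocks by day (0.492) and with no replicate block (1).

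Across the 16 means of siRNA and day, SOD1 and SOD2 followed each other with Pearson's r = 0.93, SOD2 and GPX4 with 0.87, SOD1 and PRDX3 with 0.88, and SOD2 and PRDX3 with 0.84. GPX1 followed them less closely, with 0.63 to SOD1, 0.53 to PRDX3, 0.43 to GPX4 and 0.40 to SOD2. SOD3 stood furthest outside, with r between -0.08 and 0.24 to the other 5. These are descriptions over means that share arrays and normalization. The gene whose pattern was most like that of PRDX3 was Coq6, an enzyme of coenzyme Q synthesis (r = 0.990). Foxred1, a factor for assembly of respiratory complex I (0.965), Tex2 (0.963) and Taldo1, the transaldolase of the pentose phosphate pathway (0.959), were nearest to SOD1. For SOD2 they were 1110020P15Rik (0.962), LOC100048483 (0.951) and Osgepl1 (0.948). Pgls (0.916), Tex2 (0.878) and Tkt (0.874) were nearest to GPX4, Pgls and Tkt being enzymes of the pentose phosphate pathway, which supplies the NADPH that reduces glutathione. GPX1 was nearest to Prkcdbp (0.906), Fis1, a mitochondrial fission factor (0.892), and Zdhhc12 (0.880), and SOD3 to Slc44a1 (0.853), Sdf4 (0.846) and Tmem110 (0.846).

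Other genes of redox metabolism were grouped in 9 lists of 149 genes, of which 142 had 197 probes on the array. Over days -2 to 6, 37 of these probes were called lower and 11 higher under PPARγ siRNA, with a median of -0.05 beside -0.03 over all probes. The whole array had 6.74% of its probes lower and 6.37% higher, or 16.1% and 15.3% of those above background on every array, and the counts of each list are to be read against these shares. Probes called lower ranged from 0 of 16 in the list closest to the members to 14 of 30 in the peroxisome list.

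**Figure D4:**
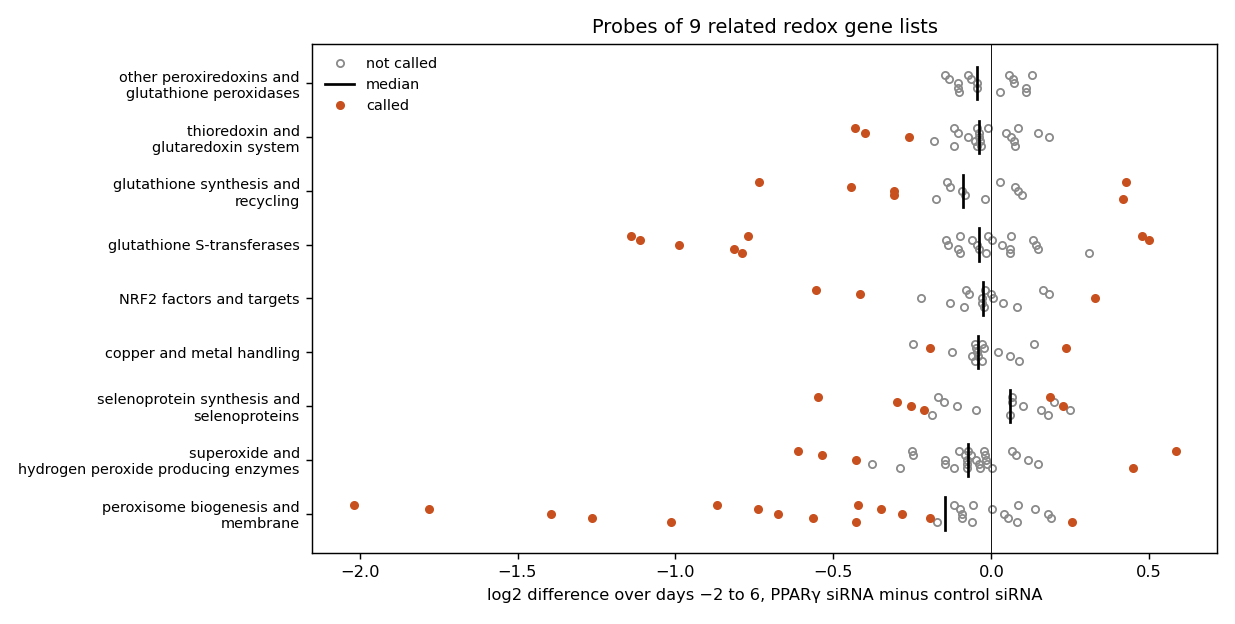
Log2 difference between PPARγ siRNA and control siRNA over days -2 to 6 (x axis) for each probe of 9 redox lists (rows), filled where called, with a black bar at the list's median. The peroxisome list holds 14 filled points below 0 and 1 above, and the list of other peroxiredoxins and glutathione peroxidases holds none.

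The closest relatives of the members, the other peroxiredoxins and glutathione peroxidases, had 0 of 16 probes called in either direction, with a median of -0.05. In that list Prdx1, a cytosolic peroxiredoxin, had -0.15 (adjusted p = 0.410), and Prdx5, found in mitochondria and peroxisomes, had -0.07 and -0.10 by its probes (adjusted p = 1). The Prdx5 probes had 0.13 and 0.15 over days 0 to 2, and -0.31 and -0.36 over days 4 to 6. In control cells they rose by 0.79 and 0.54 from day -2 to day 6. Of the other probes above background on all 48 arrays, Gpx7 had -0.11. Prdx2 (0.03), Prdx4 (0.07), Prdx6 (0.11) and Gpx8 (0.07 and 0.11) went the other way. Of the thioredoxin and glutaredoxin system, which recharges the peroxiredoxins, 3 of 23 probes were lower and 0 higher, a share lower that lies between the 6.74% of all probes and the 16.1% of those above background on every array. Txnrd3, a thioredoxin reductase, was lower by -0.43, and Glrx5, a mitochondrial glutaredoxin needed for iron-sulphur clusters, by -0.40.

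Of genes for glutathione synthesis and recycling, 4 of 16 probes were lower and 2 higher. Gclm, the modifier subunit of the enzyme that starts glutathione synthesis, was lower by -0.31, and Chac1, which degrades glutathione, was higher by 0.43. These differences lay in different periods. Gclm had -0.0022 over days 0 to 2 and -0.83 over days 4 to 6. Chac1 had 0.84 and -0.0031. Of the glutathione S-transferases, which attach glutathione to reactive compounds, 6 of 27 probes were lower and 2 higher. Gstz1 was lower by -1.14 (SE 0.026) and Mgst1, a membrane-bound form, by -0.99 (SE 0.043), both more than any member. Of NRF2 and its targets, 2 of 18 probes were lower, Cbr1 by -0.56 and Hmox1, heme oxygenase 1, by -0.42, and 1 was higher, Ephx1 by 0.33. Ephx1 had 0.71 over days 0 to 2 and 0.03 over days 4 to 6, while Cbr1 and Hmox1 were lower in both periods. Beside these counts, 6.74% and 6.37% of all probes were called lower and higher. Of those above background on every array, the shares were 16.1% and 15.3%.

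The peroxisome list, genes for the organelle that holds catalase, had 14 of 30 probes lower and 1 higher, with a median of -0.15, where 6.74% and 6.37% of all probes were called lower and higher. Of probes above background on every array, these shares were 16.1% and 15.3%. Pex11a, a factor for peroxisome division, was lower by -1.78 (SE 0.041), 3.44-fold, and rose by 2.93 between day -2 and day 6 in control cells. Pxmp4, a peroxisomal membrane protein, was lower by -0.87. On days 4 to 6 alone, 11 of the 30 probes were lower and 0 higher, beside 3.77% and 1.54% of all probes. Of those above background on every array, 8.3% were called lower on these days.

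The remaining lists had calls in both directions. Of copper and metal handling, 1 of 17 probes was lower, the copper importer Slc31a1 by -0.19, and 1 higher, the metallothionein Mt2 by 0.24, shares near those of all probes. Of selenoproteins and their synthesis, which GPX1, GPX3 and GPX4 depend on, 4 of 19 were lower, among them Selenoi by -0.30 and Secisbp2 by -0.25, and 2 higher, Selenon by 0.23 and Selenow by 0.19. Of enzymes that produce superoxide or hydrogen peroxide, 3 of 31 were lower and 2 higher, among them Xdh, xanthine dehydrogenase, by 0.45.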

How the data were processed

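RNA of 3T3-L1 cells under control or PPARγ siRNA was measured on 48 arrays, 3 biological replicates for each of 16 groups, taken from the sample titles. Per probe and array, the authors deposited a bead intensity averaged in BeadStudio and not normalized, with the spread and number of its beads. A detection fraction, 1 minus the detection p-value, was deposited beside each intensity. Values after the rank-invariant normalization and batch removal of the study's methods were not used here. Precision is limited by the signal over background and by how many arrays there were. Array medians lay between 105.1 and 141.7, with a median of 35 beads per probe.

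In R 4.3.3, limma 3.58.1 removed background by normexp, with offset 16 and guided by detection p-values. Each array was divided by a scale factor, between 0.635 and 1.37, taken as its median ratio to the average of all arrays, over probes of the 50th to 90th percentile whose rank moved by under 0.05 of the probes. Means per siRNA and day with the replicate number as a block were fitted (lmFit, eBayes) and Bonferroni adjusted. Pairs are samples of the same day and replicate number in the titles. Such samples deviated together from their group means in all 24 pairs (r between 0.544 and 0.914). What all arrays of a replicate share was not removed first, so these correlations do not show pairing within a day. Counts of lower pairs, in which days of a replicate recur, thus only describe the values. Fits were tested on simulated data, where 200 of 24613 probes carried a log2 shift of 1. Of these 200, the fits recovered 200 over days -2 to 6, 199 over days 4 to 6 and 192 for late minus early. They recovered 177 by the F-test over days and 99 for the day 6 minus day -2 difference. How the fits behave when the siRNA difference varies between replicates was not tested. Figures were drawn with matplotlib 3.10.9.

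The members and lists were chosen with earlier results of these data known. Named are all members, up to 2 probes a direction and list with the largest called difference among probes above background on all 48 arrays, the 3 probes most correlated with each such member over the 16 means, and Pparg. Some probes this rule names are not reported here. Prdx1, Prdx2, Prdx4, Prdx5, Prdx6, Gpx7 and Gpx8 were named after their values were seen. Symbols are those of the array, and motifs were searched on both strands of the 250 bases before each RefSeq start.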

Additional observations from a re-analysis of the deposited data

Results flagged for a closer look

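SOD2 stood out in both tests of whether its response differed between conditions. Its change from day -2 to day 6 differed between the siRNAs by -1.19 (adjusted p = 0.000147), from a rise of 1.06 in control cells against -0.13 under PPARγ siRNA. Its siRNA difference was larger on days 4 to 6 than on days 0 to 2 by -0.60 (adjusted p = 0.00274), in the same direction in 3 of 3 replicates. The call on the change was lost without replicate 3 (adjusted p = 1), with no replicate block (1) and with blocks by day (0.0754). The late call was lost without replicate 1 (0.0585), 2 (0.379) or 3 (1), with no replicate block (1) and with blocks by day (0.492). Adipocyte markers also differed between these groups, and their part in the SOD2 difference was not tested.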

How the results depend on the processing

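Over days -2 to 6, PRDX3, SOD2 and SOD1 kept their direction and stayed called in all 10 alternatives, and CAT in 5 of 10. The count of enzymes called was 7 with Benjamini-Hochberg adjustment, where SOD3 was called higher (adjusted p = 0.0322). It was 5 with probes above background on at least 3 arrays, GPX4 among them, and between 3 and 4 without single replicates. Over days 4 to 6 it was 6 with Benjamini-Hochberg adjustment, 1 with no replicate block, where SOD2 had an adjusted p of 0.0838, and between 1 and 2 without single replicates. For change over the days in control cells it was 3 with no replicate block and between 2 and 3 without single replicates. For the late minus early effect it was 4 with Benjamini-Hochberg adjustment, 0 with no replicate block, 0 with replicate blocks by day and 0 without any single replicate. For the difference of the day 6 minus day -2 change it was 2 with quantile normalization, 2 with probes above background on at least 3 arrays, 5 with Benjamini-Hochberg adjustment, 0 with no replicate block, 0 with blocks by day and between 0 and 1 without single replicates. SOD3 over days 4 to 6 turned from -0.03 to 0.0078 with quantile normalization, and is not called either way. Background correction left out and an offset of 50 moved no count by more than 1.5 times. The cause of these changes was not tested. The BeadChip as a block was not run, since the headers used here do not give it, and averaging probes gives no other value with 1 probe a gene. The fit of days 4 to 6 within all 48 arrays was chosen after seeing the data and called 4 enzymes. Signal near background limits CAT and GPX3.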
